A study of Mus musculus with 2 samples.

Results

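Glycolysis turns glucose into pyruvate and lactate, and hypoxia response genes are those that cells raise when oxygen runs low. The expression of 31 such genes was followed across the cell classes of the embryonic mouse eyecup, with and without Six3 and Six6, homeodomain factors of the developing eye. The genes were taken by symbol from a list made from known function, with no threshold on their values, out of 31053 rows of the feature list. This list and the further lists used below were chosen with earlier results of these data known. Their counts beside all genes are therefore descriptions, not tests of an independent set. All 31 were found. They comprise 2 glucose transporters, 10 genes of upper glycolysis, 6 of lower glycolysis, 5 of lactate and pyruvate metabolism, 7 hypoxia response genes and Hif1a.

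The data are single-cell RNA-seq profiles of eyecups (retina, lens and blood) at E13.5, 1 library per genotype. The control embryo was Six3+/-;Six6+/- with no Cre in its label, so that it carried 1 mutant allele of each gene. The DKO embryo was Six3F/F;Six6-/-;a-Cre: Six6 was lost from all cells through the germline, whereas α-Cre removed Six3 only in the peripheral retina, so that the central retina of the DKO kept it. Each library came from the eyecups of 1 embryo, the DKO embryo being picked by GFP-positive rosettes in the retina and the control by normal shape without GFP. There were no replicates, no test between the genotypes was possible, and a difference between genotypes cannot be told apart from one between 2 embryos or dissections. All 95% intervals, given in parentheses, cover counting error only.

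Glucose enters cells through facilitative transporters, is trapped by hexokinase, committed by phosphofructokinase, split by aldolase and oxidised to pyruvate, which lactate dehydrogenase turns into lactate for export by monocarboxylate transporters. When oxygen is scarce, prolyl hydroxylases no longer mark the factor HIF1A for destruction, and HIF1A with its partner ARNT binds short ACGTG or GCGTG motifs near genes of glucose uptake, glycolysis, blood vessel growth and mitochondrial turnover. HIF1A is thus set largely through its protein, which was not measured here. Proliferating retinal progenitors are known to make lactate even where oxygen is present.

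After filtering, 9822 control and 12146 DKO cells remained, with medians of 7620 and 5879 UMIs (unique molecular identifiers, 1 per captured RNA molecule). The 2 libraries shared 22 cell barcodes. Cells were grouped without use of the 31 genes and named from marker genes, each name carrying the word like: naive-like progenitors (3264 control and 3292 DKO cells), neurogenic-like cells (1450 and 1756), neuron-like cells (1416 and 2964), margin-like cells (1056 and 1211), lens-like cells (413 and 406) and red-like blood cells (1131 and 581). Every marker of the matching list was above its level in the other cells in each cluster of these classes. The margin-like class joins the lists for ciliary margin and pigment epithelium, and its 1 cluster matched the pigment epithelium list best. Its leading genes were those of pigment cells (Pmel, Trpm1, Dct) together with the ciliary margin genes Gja1 and Wls. Among naive-like cells Six6 was at 367 CPM (UMIs per 1000000 UMIs of the class) in the control and 45.3 in the DKO library, and Six3 at 309.7 and 230.0 CPM. Six3 is only a partial check, since reads of this assay lie at the 3′ end, outside the exon that Cre removes.

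The first question was how the 31 genes differed between DKO and control cells of the same class. A gene was compared in a class if the libraries together held at least 100 UMIs of it, and a difference of 1.5-fold (0.58 on the log2 scale) was used as a fixed measure of size. In naive-like cells 9 of the 30 genes compared were more than 1.5-fold higher in DKO and none was lower, where 5.40% of all 11606 genes compared were higher and 2.99% lower. Relative to the median of all genes, 7 of these 9 passed. With CPM taken without hemoglobin, mitochondrial and ribosomal protein genes the count was 6. The share of all genes is not given for either of these counts. In neurogenic-like cells 9 of 28 were higher and 0 lower (all genes, 5.96% and 4.29%), in margin-like cells 9 of 29 and 0 (7.17% and 3.95%), and in lens-like cells 8 of 22 and 0 (11.5% and 2.82%). In cells called G1 alone, the naive-like and neurogenic-like counts were lower and the lens-like count higher, as given below. Cells called G1 made up 47.6% of control and 66.7% of DKO neurogenic-like cells with at least 2000 UMIs. In neuron-like cells 1 of 28 was higher and 0 lower (7.16% and 2.94%). This count moved with the processing, to 4 higher with the libraries merged without integration or with each cell weighted the same, and to 2 higher and 2 lower with DKO cells limited to 129 cells of subclusters low in Six3. Among red-like cells, in which most RNA is hemoglobin RNA, 13 genes could be compared, of which 3 were higher and 0 lower (8.18% and 9.27%). The median log2 difference of the members was 0.35 in naive-like, 0.36 in neurogenic-like, 0.36 in margin-like, 0.15 in neuron-like, 0.40 in lens-like and 0.37 in red-like cells, beside 0.02, 0.01, 0.02, 0.03, 0.20 and 0.09 for all genes compared. Over the 6 classes, 19 of the 31 genes passed 1.5-fold upward in at least 1 class and none passed it downward. The other 12 passed it in none, among them Aldoc, which was compared in no class. For all genes the share passing in at least 1 class was not counted, so these totals cannot be set against it.

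**Figure D1:**
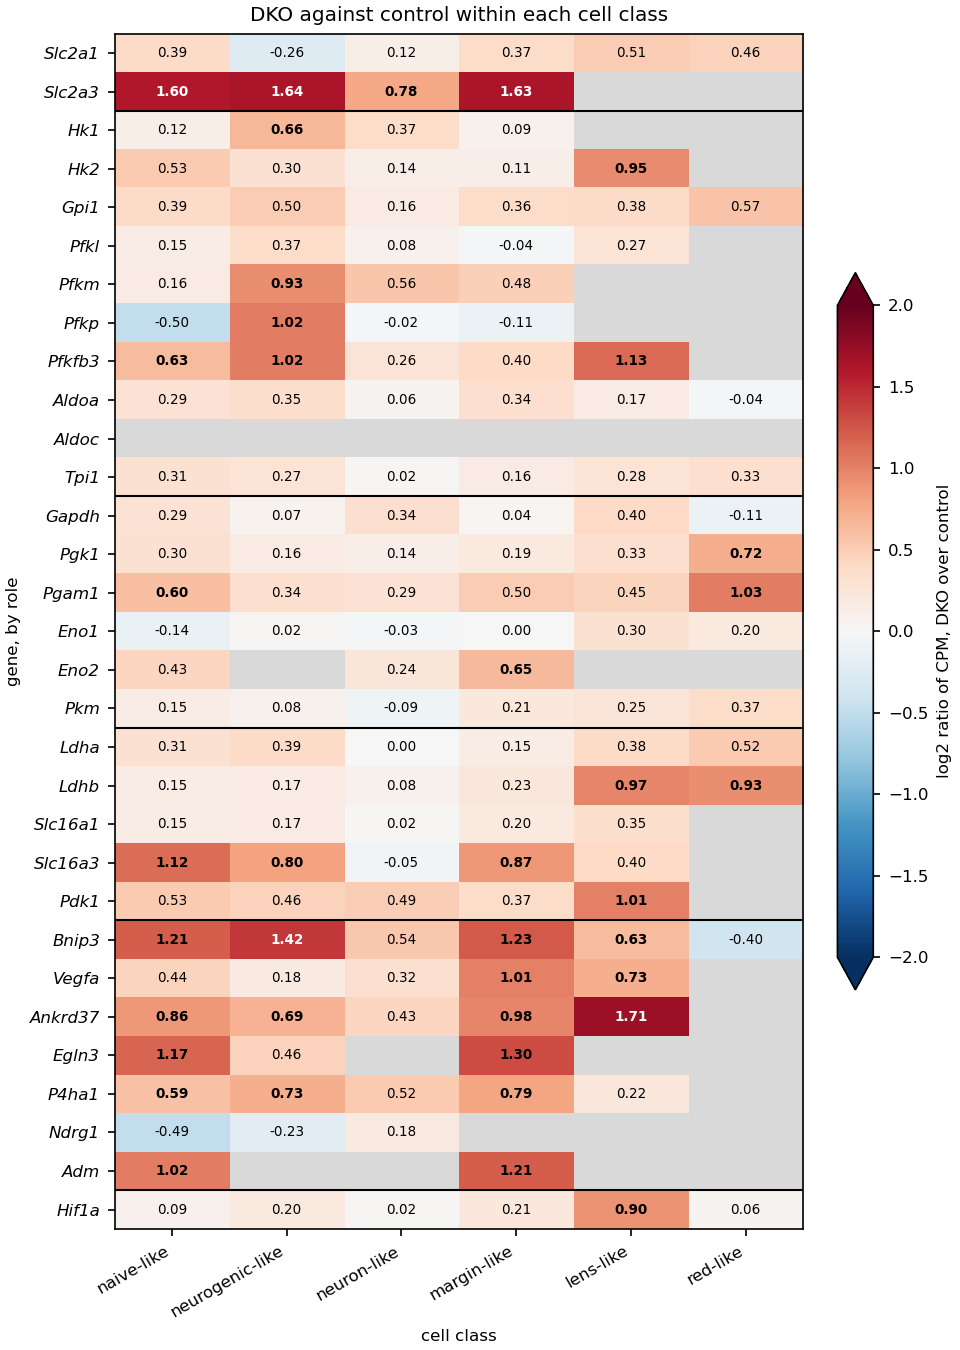
Log2 ratio of CPM, DKO over control, for each of the 31 genes (rows, in the order of their roles, separated by lines) in 6 cell classes (columns). Bold values passed 1.5-fold, grey cells had under 100 UMIs. Slc2a3, Bnip3 and Ankrd37 passed it in 4 classes each, and the neuron-like column holds 1 bold value.

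Of the glucose transporters, Slc2a3 (GLUT3, a carrier of high affinity typical of neurons; chr6:122727809-122801640 in GRCm38) showed the largest difference in naive-like cells. It was at 17.3 CPM (569 UMIs) in the control and 52.3 CPM (1509 UMIs) in the DKO library, 3.03-fold higher (2.75 to 3.34). The DKO level was about as far above the control level in neurogenic-like cells, at 3.69 and 11.5 CPM (log2 difference 1.64, 1.11 to 2.20), and in margin-like cells, at 25.3 and 78.3 CPM (1.63, 1.42 to 1.85). In neuron-like cells it was at 11.3 and 19.4 CPM (0.78, 0.49 to 1.09), the only member to pass 1.5-fold there. Within its clusters Slc2a3 had 28 UMIs in 581 control cells (6.23 CPM) and 86 UMIs in 1161 DKO cells of cluster 5, but was at 15.0 and 18.5 CPM in cluster 7, which held 376 of 1416 control and 1068 of 2964 DKO cells of the class. Cluster 15 held 28 UMIs in 84 control cells (20.2 CPM) and 130 UMIs in 238 DKO cells (41.7 CPM). Of these cells 94.0% and 89.9% were called doublets. With doublets left out, the log2 difference of Slc2a3 in neuron-like cells was 0.63. Over clusters with at least 20 UMIs of it, Slc2a3 was higher in DKO in 13 of 13, all of them parts of the same 2 libraries. Slc2a1 (GLUT1, the main transporter of progenitors) went from 244 to 319 CPM in naive-like cells (0.39, 0.34 to 0.43), but was lower in DKO among neurogenic-like cells, at 253 and 211 CPM (log2 difference -0.26, -0.35 to -0.18). Of that class, cluster 3 held 898 of 1450 control and 1337 of 1756 DKO cells, and Slc2a1 was at 276 and 202 CPM in it but at 228 and 229 CPM in the other cluster, number 9.

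In upper glycolysis the differences of naive-like cells were small for most enzymes. Pfkfb3, whose product makes the fructose bisphosphate that activates phosphofructokinase, was at 17.3 and 26.6 CPM (log2 difference 0.63, 0.47 to 0.78). It was the only one of this role past 1.5-fold. Hexokinase 2 (Hk2) stood just outside it, at 37.0 and 53.3 CPM (0.53, 0.42 to 0.64). Gpi1, Aldoa and Tpi1, which convert and split the hexose phosphates, were higher by 0.39, 0.29 and 0.31. Pfkp, the platelet-type phosphofructokinase, was the exception, with 14.3 CPM in control and 10.1 in DKO cells (-0.50, -0.71 to -0.28). Aldoc, aldolase C, had under 100 UMIs in every class and was not compared.

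In neurogenic-like cells 4 genes of upper glycolysis passed 1.5-fold. Pfkp was at 5.17 and 10.5 CPM (log2 difference 1.02, 0.53 to 1.52), opposite in direction to naive-like cells. Pfkm, the muscle-type phosphofructokinase, had 80 and 134 UMIs (0.93, 0.52 to 1.34), and Pfkfb3 at 14.9 and 30.1 CPM (1.02, 0.74 to 1.31). Hk1, the hexokinase bound to mitochondria in many tissues, was at 4.43 and 7.01 CPM, with a wide interval (0.66, 0.11 to 1.23). Hk1 rested on 48 control and 67 DKO UMIs, and Pfkp on 56 and 100.

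The abundant enzymes of lower glycolysis differed little. In naive-like cells Gapdh was at 1979 and 2416 CPM (log2 difference 0.29), Pgk1 at 390.2 and 482 CPM (0.30) and Pkm, pyruvate kinase, at 803 and 889 CPM (0.15). Eno1, the enolase of most tissues, was at 1107 and 1006 CPM (-0.14, -0.16 to -0.12), lower in DKO. Only Pgam1, phosphoglycerate mutase, passed 1.5-fold, and narrowly, at 489 and 739.8 CPM (0.60, 0.57 to 0.63). Eno1 was within counting error of equal in neurogenic-like cells (0.02), neuron-like cells (-0.03) and margin-like cells (-0.00). Eno2, the neuronal enolase, was at 9.71 and 15.3 CPM in margin-like cells (0.65, 0.27 to 1.04). Reads of Gapdh and Eno1 can be shared with pseudogenes and with the near-identical Eno1b, so small differences of these genes are uncertain.

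At the lactate step, Slc16a3 (MCT4, which exports lactate) had the clearest difference. It was at 23.4 CPM in control and 50.7 in DKO naive-like cells (2.17-fold, 1.99 to 2.37), at 24.4 and 42.6 CPM in neurogenic-like cells (log2 difference 0.80, 0.57 to 1.03) and at 18.4 and 33.6 CPM in margin-like cells (0.87, 0.60 to 1.14). In neuron-like cells it did not differ beyond counting error, at 25.7 and 24.7 CPM (-0.05, -0.27 to 0.16). Slc16a1 (MCT1) was at 37.5 and 41.6 CPM in naive-like cells (0.15, 0.03 to 0.26). The dehydrogenase subunits Ldha and Ldhb were higher by 0.31 and 0.15 in these cells. Pdk1, a kinase that keeps pyruvate out of mitochondria, was just outside 1.5-fold at 18.5 and 26.8 CPM (0.53, 0.38 to 0.69).

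Of the 7 hypoxia response genes, 5 of 7 passed 1.5-fold upward in naive-like cells, 3 of the 6 compared in neurogenic-like, 6 of 6 in margin-like, 3 of 4 in lens-like, 0 of 5 in neuron-like and 0 of 1 in red-like cells. For all genes the shares higher were 5.40%, 5.96%, 7.17%, 11.5%, 7.16% and 8.18% in the same order of classes. Bnip3, which marks mitochondria for removal, was at 25.4 and 58.5 CPM in naive-like cells (2.31-fold, 2.12 to 2.51), at 28.8 and 77.2 CPM in neurogenic-like cells (2.68-fold, 2.35 to 3.07) and at 23.3 and 54.8 CPM in margin-like cells (2.35-fold, 2.01 to 2.76). Egln3, a prolyl hydroxylase that acts on HIF1A and is itself a target of it, had 162 and 319 UMIs in naive-like cells (2.25-fold, 1.85 to 2.73). Ankrd37, an ankyrin repeat protein, was at 15.9 and 28.9 CPM (1.82-fold, 1.63 to 2.03). P4ha1, a collagen prolyl hydroxylase, stood just inside the threshold with 2184 and 2889 UMIs (1.51-fold, 1.43 to 1.60). Adm, the vasodilator peptide adrenomedullin, was rare, with 49 and 87 UMIs (1.49 and 3.01 CPM, 2.03-fold, 1.41 to 2.94). The vessel growth factor Vegfa was at 45.1 and 61.4 CPM in naive-like cells (1.36-fold, 1.27 to 1.46) but at 45.8 and 92.3 CPM in margin-like cells (2.01-fold, 1.80 to 2.26). Ndrg1, a stress-induced gene also active in neurons, went the other way in naive-like cells, at 6.58 and 4.67 CPM (0.710-fold, 0.568 to 0.884). Hif1a mRNA itself was nearly level, at 139 and 148 CPM in naive-like cells (log2 difference 0.09, 0.03 to 0.15) and 173 and 175 CPM in neuron-like cells (0.02, -0.06 to 0.10).

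The sequences just before the start sites of 4 members past 1.5-fold in naive-like cells are shown because they hold the core motifs that HIF1A and ARNT can bind. They are the 170 bases upstream of the RefSeq start, 5′ to 3′ on the gene's strand in GRCm38, with matches to ACGTG or GCGTG on either strand in capitals (CACGT and CACGC are the reverse complements, and overlapping matches run together). Slc16a3 lies at chr11:120948897-120949066 (+), Bnip3 at chr7:138909507-138909676 (-), Ankrd37 at chr8:45999851-46000020 (-) and P4ha1 at chr10:59323126-59323295 (+).
Slc16a3: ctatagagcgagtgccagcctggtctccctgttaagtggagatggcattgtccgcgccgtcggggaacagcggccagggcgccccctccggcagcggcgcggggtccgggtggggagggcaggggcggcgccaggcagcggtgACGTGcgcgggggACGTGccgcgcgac
Bnip3: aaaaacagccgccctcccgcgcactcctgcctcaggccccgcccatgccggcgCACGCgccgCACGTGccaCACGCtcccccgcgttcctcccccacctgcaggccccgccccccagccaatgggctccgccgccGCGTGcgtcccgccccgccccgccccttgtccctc
Ankrd37: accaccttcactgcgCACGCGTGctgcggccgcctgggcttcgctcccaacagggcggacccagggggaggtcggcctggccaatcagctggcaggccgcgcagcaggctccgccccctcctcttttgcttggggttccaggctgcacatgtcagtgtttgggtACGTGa
P4ha1: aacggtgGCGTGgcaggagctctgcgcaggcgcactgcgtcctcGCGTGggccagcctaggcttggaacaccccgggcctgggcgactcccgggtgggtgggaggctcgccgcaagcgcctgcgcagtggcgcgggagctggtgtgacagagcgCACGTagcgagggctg

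A promoter window, 250 bases before to 50 after the start, was held for 29 of the 31 genes. Slc2a3 and Ndrg1 had none. ACGTG was in at least 1 window of 20 of the 29 genes (69.0%), against 21.8% of 27025 genes with a window. Either motif was in 26 of 29 (89.7%), against 46.7%. Members had 43 windows for 29 genes and all genes 32851 windows for 27025, and the share was not adjusted for this. The list holds, by choice, genes of the kinds near which HIF1A binds, so these shares are not an independent result. Of the 8 members past 1.5-fold in naive-like cells with a window, 7 held ACGTG and 8 either motif. Among members not past it there, Ldha, Pgk1, Slc2a1 and Hk2 held ACGTG too, while others, such as Gpi1 and Tpi1, held neither motif. Whether the motif was more frequent in the 8 than in the other members was not tested. ACGTG is also part of the E-box CACGTG, which other factors bind, and a match is a description of letters, not a measured site.

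**Figure D2:**
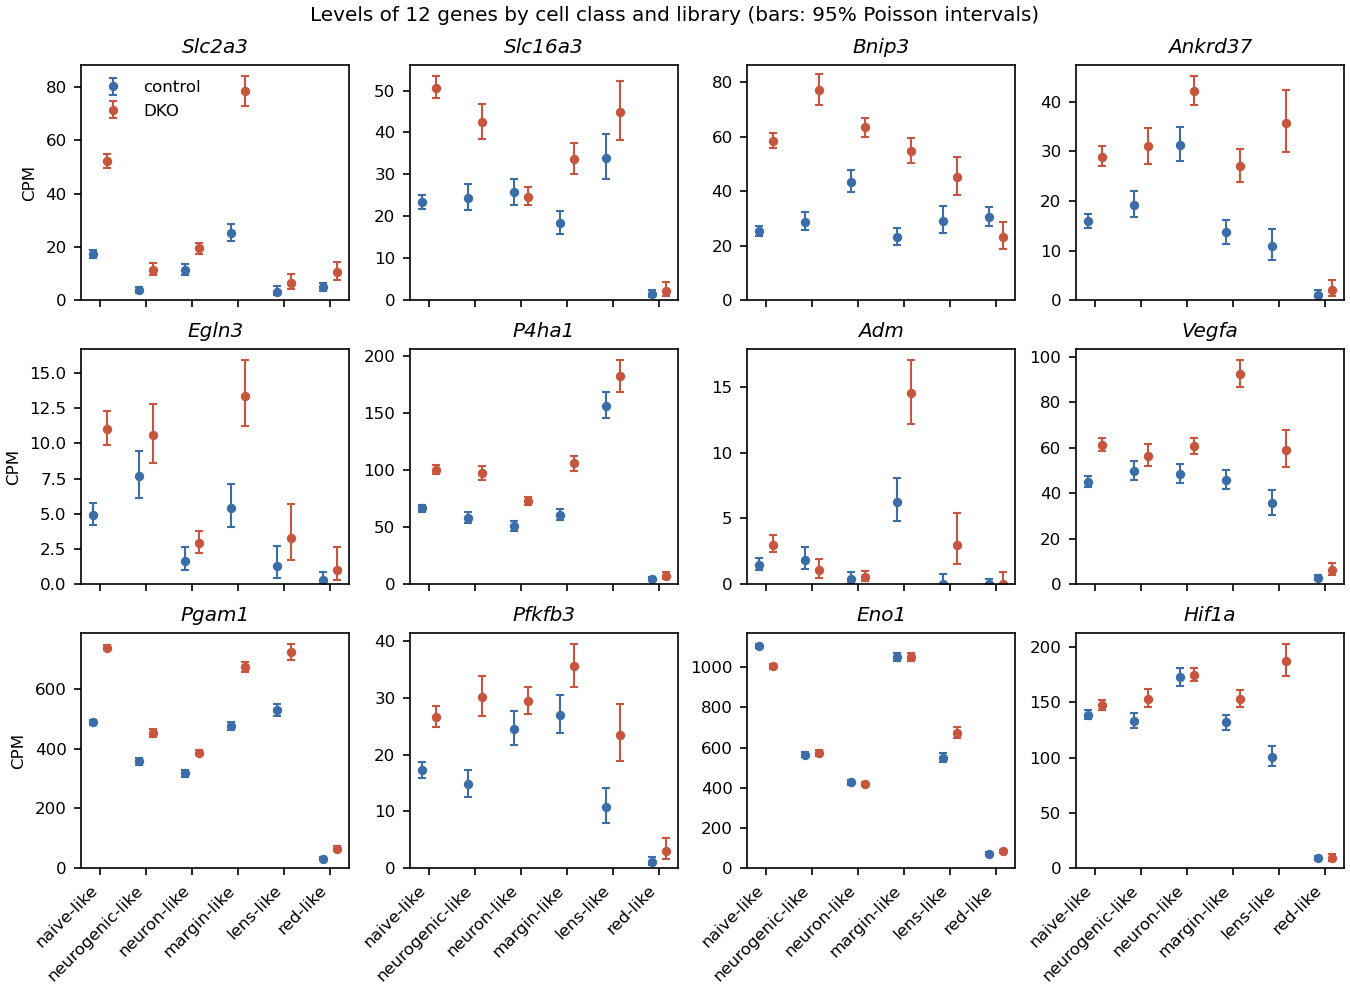
CPM (linear axes from 0) of 12 of the genes in 6 cell classes, control in blue and DKO in red, with 95% Poisson intervals as bars. In naive-like cells the DKO points of Slc2a3, Slc16a3 and Bnip3 lie at 52.3, 50.7 and 58.5 CPM, over control points at 17.3, 23.4 and 25.4, whereas those of Hif1a lie at 148 and 139.

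Margin-like cells followed naive-like cells for Slc2a3, Slc16a3, Bnip3, Egln3, Ankrd37, P4ha1 and Adm, and added Vegfa and Eno2. Ankrd37 was at 13.7 and 27.1 CPM (log2 difference 0.98, 0.68 to 1.30), Egln3 at 5.43 and 13.4 CPM (1.30, 0.83 to 1.79), P4ha1 at 60.9 and 106 CPM (0.79, 0.65 to 0.94) and Adm at 6.27 and 14.5 CPM (1.21, 0.77 to 1.67). This class depended on how its cells were found. With the libraries merged without integration 3 members were higher and 5 lower, where 26.4% of all genes passed 1.5-fold in either direction. With cells gated on marker UMIs 1 was higher and 5 lower (all genes, 24.3%). Under these settings Bnip3 stayed above 1.5-fold, at a lowest value of 1.02, whereas Adm, Vegfa, Eno2 and Ankrd37 turned negative in 1 or both. In gated cells Slc2a3 (0.25), P4ha1 (0.22) and Slc16a3 (0.08) were also below 1.5-fold. In neurogenic-like cells the remaining genes past the threshold were Ankrd37, with 208 and 296 UMIs (0.69, 0.43 to 0.95), and P4ha1, at 58.3 and 96.9 CPM (0.73, 0.59 to 0.88).

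In lens-like cells, where Six3 was at 164 CPM in control and 255 in DKO, Ankrd37 was highest in ratio, at 10.9 and 35.7 CPM (log2 difference 1.71, 1.24 to 2.20). Pfkfb3 was at 10.7 and 23.5 CPM (1.13, 0.62 to 1.66), Pdk1 at 13.9 and 27.8 CPM (1.01, 0.55 to 1.48), Ldhb at 19.7 and 38.8 CPM (0.97, 0.59 to 1.37), Hk2 at 25.6 and 49.4 CPM (0.95, 0.61 to 1.29) and Hif1a at 101 and 188 CPM (0.90, 0.73 to 1.07). Vegfa was at 35.7 and 59.2 CPM (0.73, 0.43 to 1.03) and Bnip3 at 29.2 and 45.3 CPM (0.63, 0.30 to 0.97). Since all genes had a median of 0.20 in this class, 6 of the 8 passed relative to it. The count depended on phase, with 16 of 18 in cells called G1, where 24.9% of all genes passed 1.5-fold in either direction, and 1 of 21 in cells called S or G2/M (4.94%). In red-like cells Pgam1 was at 32.0 and 65.4 CPM (1.03, 0.79 to 1.28), Ldhb at 8.99 and 17.1 CPM (0.93, 0.45 to 1.40) and Pgk1 at 24.1 and 39.6 CPM (0.72, 0.41 to 1.01), while Bnip3 was lower in DKO, at 30.7 and 23.3 CPM (-0.40, -0.75 to -0.06). The make-up of this class differed between the libraries, with 780 of its 1131 control and 287 of its 581 DKO cells in cluster 8. Within cluster 8, which held most of its Bnip3 UMIs, Bnip3 was at 37.9 and 38.0 CPM. Cluster 19, with 59 control and 27 DKO cells, of which 86.4% and 25.9% were called doublets, held 197 of the 313 Pgam1, 163 of the 236 Pgk1 and 53 of the 88 Ldhb UMIs of control red-like cells. With doublets left out 8 of 11 members were higher in red-like cells, but so many other genes moved that 48.5% of all genes passed 1.5-fold in either direction.

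Summed over the 7 hypoxia response genes, the level was 166 CPM in control and 268 in DKO naive-like cells, 178 and 284 in neurogenic-like, 197 and 266 in neuron-like, 159 and 309.8 in margin-like, 240.0 and 332 in lens-like, and 40.7 and 41.4 CPM in red-like cells. The sum was higher in DKO in 18 of the 18 clusters to which both libraries gave 50 or more cells, the unnamed one included, with separate intervals in 13. Intervals overlapped in the rest, among them red-like clusters 8 (42.5 and 47.4 CPM) and 11 (9.93 and 11.9 CPM). All clusters are parts of the same 2 libraries and are not separate observations. How often other genes were higher in all of them was not counted. To compare cells at equal depth, UMIs were drawn at random down to 2000 in every cell that had as many, leaving out 34 control and 46 DKO naive-like, 10 and 33 margin-like, 168 and 233 neuron-like, and 11 and 14 red-like cells. At least 1 UMI of the 7 genes was then present in 28.0% (26.4 to 29.5) of naive-like cells from the control library and in 41.0% (39.3 to 42.7) of those from the DKO library. The shares were 25.5% and 40.1% in margin-like cells and 33.0% and 39.3% in neuron-like cells. Red-like cells, at the same 2000 UMIs, had 6.16% and 6.70%. The difference in the naive-like class was thus also seen as a larger share of cells at equal depth.

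**Figure D3:**
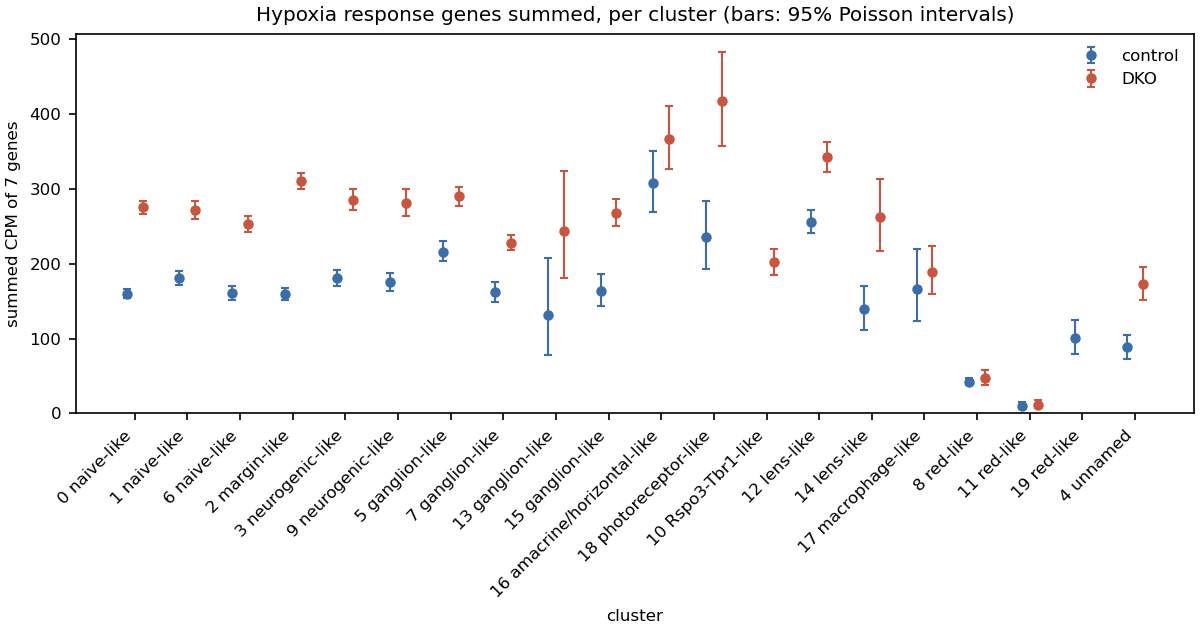
Summed CPM of the 7 hypoxia response genes in each cluster (horizontal axis, number and name), control in blue and DKO in red, with 95% Poisson intervals as bars. The DKO point lies above the control point in all 18 clusters shown with both libraries, and red-like clusters 8 and 11 lie lowest. Clusters with 1 point had under 50 cells of the other library.

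Within naive-like cells the differences were checked by cell cycle phase. Among cells called G1 3 of 23 genes passed 1.5-fold upward (all genes, 6.23%), among S phase cells 7 of 29 (4.14%) and among G2/M cells 9 of 29 (4.83%). Slc2a3 was at 19.6 and 70.3 CPM in G1 (log2 difference 1.84), 15.8 and 47.2 CPM in S (1.57) and 18.5 and 53.3 CPM in G2/M (1.53). Bnip3 was at 33.1 and 53.3 CPM in G1 (0.69, 0.29 to 1.09), at 25.9 and 61.5 CPM in S, and 1.29 higher on the log2 scale in G2/M. P4ha1 (0.65) was the third gene past 1.5-fold in G1, while Slc16a3 (0.45), Ankrd37 (0.44) and Pfkfb3 (0.28) were not past it there. These 3 passed in S and in G2/M cells, as did Egln3, beside Eno2 (0.59) in S and Hk2 (0.62), Pgam1 (0.70) and P4ha1 (0.66) in G2/M. In S phase Pfkp was lower in DKO, at 15.6 and 10.0 CPM (-0.64).

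Because α-Cre leaves Six3 in the central retina, DKO naive-like cells were also split by the Six3 level of their subcluster. Cre itself was not measured here, and whether Six3-low cells are those that had Cre was not tested. Those subclusters whose Six3 level was less than 50% of that in control cells held 1448 cells at 106 CPM of Six3, and the others 1844 cells at 328 CPM, while Six6 was low in both, at 36.3 and 52.3 CPM. Against the control, 5 of 29 genes were higher in Six3-low cells (all genes, 6.15%) and 2 lower (7.39%), namely Pfkp, at 5.99 against 14.3 CPM, and Ndrg1, at 1.34 against 6.58 CPM. This compares with 12 of 30 higher in the other DKO cells (4.65%). Between these 2 sets of cells of the same library, 5 of 29 genes were lower in the Six3-low cells (6.30%) and 0 higher. Slc2a3 was alike in both, at 51.7 and 52.7 CPM (log2 difference -0.03, -0.18 to 0.12). Bnip3 was at 44.9 CPM in Six3-low and 69.2 in the other DKO cells (-0.62, -0.77 to -0.48), and Slc16a3 at 35.5 and 62.6 CPM (-0.82, -0.98 to -0.66). Ndrg1 was at 1.34 and 7.29 CPM (-2.44, -3.27 to -1.70), Pfkp at 5.99 and 13.3 CPM (-1.16, -1.55 to -0.77) and Eno2 at 4.25 and 8.09 CPM (-0.93, -1.41 to -0.46). Over the control, Slc2a3, Bnip3, Slc16a3 and Egln3 passed 1.5-fold in both sets, and Pgam1 in the Six3-low cells alone, at 784 CPM against 489 in the control and 705 in the other DKO cells. Ankrd37 (1.08), Pfkfb3 (0.77), Eno2 (0.76), Pdk1 (0.66), Vegfa (0.64), P4ha1 (0.62) and Hk2 (0.59) passed in the other DKO cells and not in the Six3-low cells, and the difference for each was not tested. Adm (1.54) passed in the other DKO cells too, but had under 100 UMIs in the Six3-low comparison and was not compared there.

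Other genes of the pathways were read from lists of the same kind. Of 14 further hypoxia targets compared in naive-like cells, 4 passed 1.5-fold upward, beside the 5.40% of all genes given above. In neuron-like cells 0 of 13 were higher (all genes, 7.16%) and 1 lower (2.94%), Stc2, at 6.43 and 3.84 CPM (-0.74). In neurogenic-like cells 3 of 13 were higher and 1 lower (5.96% and 4.29%), and in margin-like cells 4 of 14 and 0 (7.17% and 3.95%). Lens-like cells had 4 of 10 higher and 0 lower (11.5% and 2.82%), and red-like cells 1 of 7 and 0 (8.18% and 9.27%). The difference between classes was not tested. In naive-like cells the repressor Bhlhe40 was at 2.18 and 12.2 CPM (log2 difference 2.48, 2.11 to 2.86), the mTOR inhibitor Ddit4 at 22.4 and 41.2 CPM (0.88) and the mitochondrial protein gene Fam162a at 116 and 208 CPM (0.84). Of 14 further glycolysis genes, 0 were more than 1.5-fold higher. Eno3, the muscle enolase, was lower, at 16.1 and 6.61 CPM (log2 difference -1.28), and the pyruvate dehydrogenase kinase Pdk2 was at 3.25 and 4.19 CPM (0.37). None of 7 oxygen-sensing factors passed 1.5-fold in naive-like cells, and the 3 with the largest differences there were Arnt2 (0.30), Cited2 (0.25) and the HIF1A ubiquitin ligase subunit Vhl (-0.17). Cited2 passed it in margin-like cells (0.84) and, downward, in red-like cells (-0.71), and Hif1an, which hydroxylates HIF1A, downward in margin-like cells (-0.59).

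Several technical values moved with genotype, and their part in the differences was not tested. The median depth of naive-like cells was 8844 UMIs in the control and 7530.0 in the DKO library, and the median mitochondrial share 6.15% and 5.27%. Of 10 early genes induced by dissociation, 4 were lower in DKO naive-like cells and 0 higher (all genes, 2.99% and 5.40%). Among the 4 were Atf3 (log2 difference -1.30), Dusp1 (-0.73) and Fosb (-0.64). None of 4 heat shock genes passed 1.5-fold, the largest being Dnajb1 (-0.15), Hspa8 (-0.06) and Hsp90aa1 (0.06). In neurogenic-like cells 4 of the 10 early genes were lower and 0 higher (all genes, 4.29% and 5.96%). They were Atf3 (-3.00), Fosb (-1.30), Fos (-1.03) and Junb (-0.59), while Dusp1 was at -0.49, under 1.5-fold. Median depth there was 6788 UMIs in the control and 4821 in the DKO library. In margin-like cells 0 of the 10 early genes passed 1.5-fold in either direction (all genes, 7.17% higher and 3.95% lower). Hemoglobin RNA took 0.504% and 0.339% of the UMIs of naive-like cells, and with cells over 1% left out the count of members stayed at 9 of the 30.

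The second question was how the genes differed between classes within the control library. Against naive-like cells, neuron-like cells had 6 of 29 genes higher (all genes, 23.5%) and 10 lower (27.3%). The genes lower in neuron-like cells include a glucose transporter, a hexokinase and a dehydrogenase subunit of which the paralog was higher or less reduced. Slc2a1 was at 244 CPM in naive-like and 60.0 in neuron-like cells (log2 difference -2.02, -2.14 to -1.91), Hk2 at 37.0 and 9.09 CPM (-2.02), Slc16a1 at 37.5 and 10.0 CPM (-1.91), Eno1 at 1107 and 427 CPM (-1.37), Gapdh at 1979 and 893 CPM (-1.15) and Ldha at 731 and 379.7 CPM (-0.95). Egln3 (-1.57), Pfkl (-0.64), Pgam1 (-0.62) and Slc2a3 (-0.61) were also lower. Pfkp was at 14.3 and 174 CPM (3.61, 3.47 to 3.76), Ndrg1 at 6.58 and 20.9 CPM (1.67), Hk1 at 9.38 and 28.0 CPM (1.58) and Ldhb at 149 and 349 CPM (1.23), with Ankrd37 (0.97) and Bnip3 (0.78) behind. The neuron types differed: Ndrg1 was at 149 CPM in amacrine- or horizontal-like and 60.8 CPM in photoreceptor-like cells but at 9.29 CPM in ganglion-like cells, and Pfkp at 194 CPM in ganglion-like cells but at 20.6 and 14.7 CPM in the other 2 types. In the DKO library the same direction was found for 16 of the 16 genes, and 14 passed 1.5-fold again, all but Bnip3 and Ankrd37.

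Neurogenic-like cells, between progenitors and neurons, had 2 of 29 genes higher (all genes, 11.5%) and 9 lower (17.1%) than naive-like cells of the control. Slc2a3 was at 17.3 and 3.69 CPM (log2 difference -2.23, -2.73 to -1.76), Eno2 at 4.76 and 1.29 CPM (-1.88), Pfkp at 14.3 and 5.17 CPM (-1.46), Slc16a1 at 37.5 and 15.8 CPM and Hk1 at 9.38 and 4.43 CPM (-1.08). Eno1 (-0.97), Pfkl (-0.75), Tpi1 (-0.74) and Ldha (-0.73) were lower as well, while Ndrg1 (0.91) and Egln3 (0.64) were higher. Pfkp, Hk1 and Slc2a3 were thus lower in neurogenic-like than in naive-like cells, and Pfkp and Hk1 highest in neuron-like cells. In DKO, 9 of the 11 genes had the same direction and 7 passed 1.5-fold, all but Hk1, Pfkl, Pfkp and Egln3.

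Against naive-like cells, margin-like cells had 3 of 30 genes higher (8.25%) and 1 lower (7.35%). With the libraries merged without integration it was 13 higher and 2 lower, where 41.3% of all genes passed 1.5-fold, and at resolution 1 it was 3 and 4 (13.6%). Adm was at 1.49 and 6.27 CPM (log2 difference 2.08, 1.51 to 2.65), Eno2 at 4.76 and 9.71 CPM (1.03), Pfkfb3 at 17.3 and 27.0 CPM (0.65) and Ndrg1 at 6.58 and 3.34 CPM (-0.98). Lens-like cells had 1 of 29 higher (9.13%) and 9 lower (43.2%), where the median of all genes was -0.46. Relative to that median 8 were higher and 6 lower. The gene higher was P4ha1, at 66.3 and 156 CPM (1.24, 1.12 to 1.36). Ldhb was at 149 and 19.7 CPM (-2.92, -3.23 to -2.62), Slc2a3 at 17.3 and 3.15 CPM (-2.45), and Egln3, Pfkp, Eno2, Pfkm, Eno1, Slc16a1 and Pfkfb3 were lower by -1.96 to -0.69. Red-like cells had 0 higher (1.86%) and 27 of 29 lower (96.8%), as nearly all genes did beside the hemoglobin RNA. The 27 ranged from Vegfa (-4.08) to Slc2a3 (-1.82), and the other 2 were Hk1 (-0.22) and Bnip3 (0.27).

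**Figure D4:**
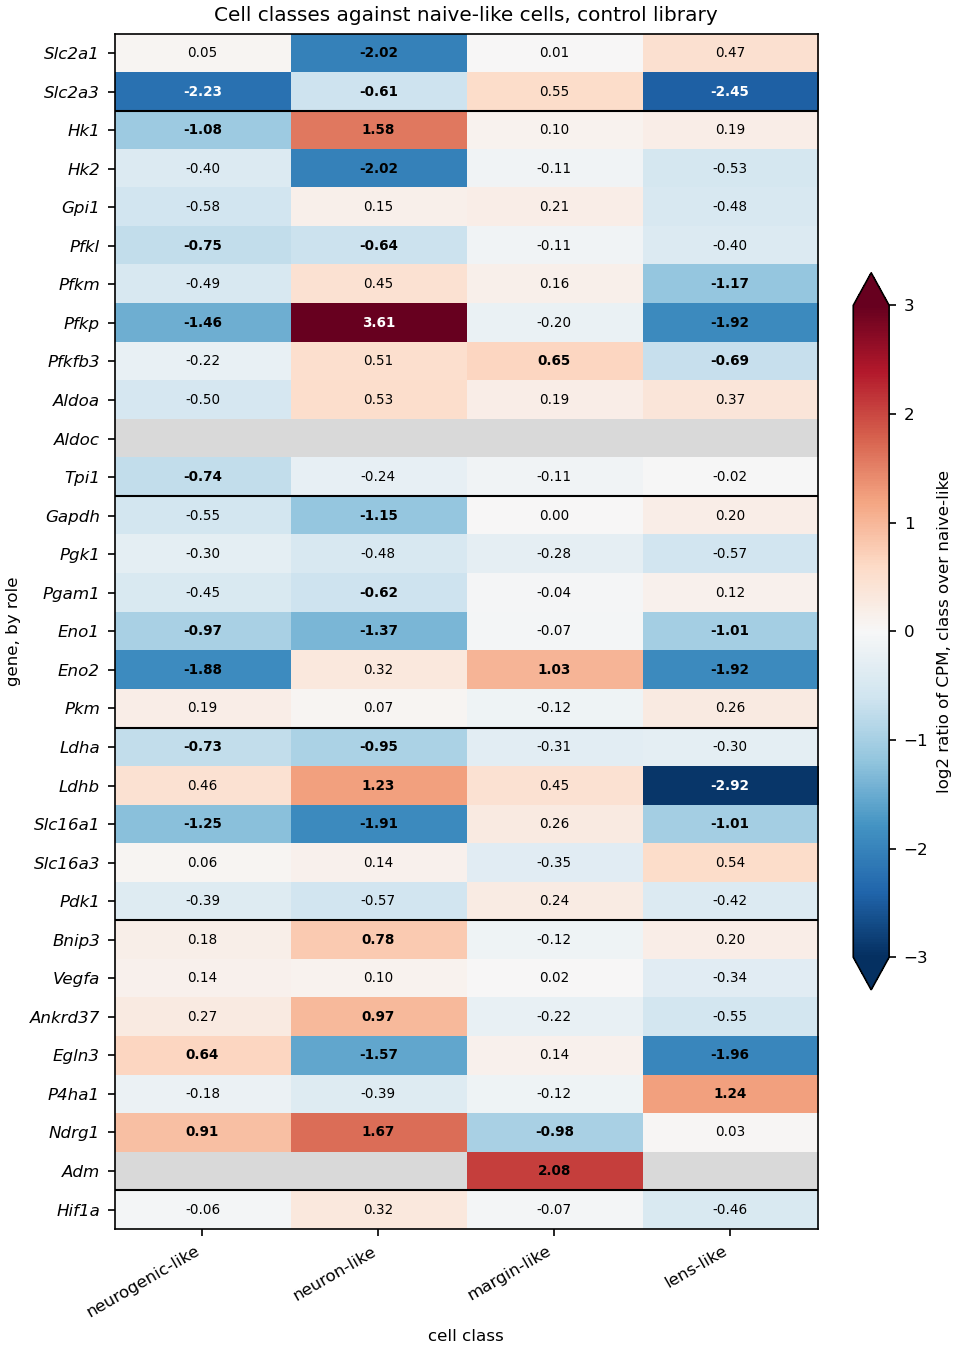
Log2 ratio of CPM in the control library, each class over naive-like cells, for each of the 31 genes (rows, by role). Bold values passed 1.5-fold and grey cells had under 100 UMIs. In the neuron-like column Pfkp, Hk1 and Ldhb are at 3.61, 1.58 and 1.23, and Hk2, Slc2a1 and Slc16a1 at -2.02, -2.02 and -1.91.

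The shares of paralogs that serve the same step were compared next. Ldha made up 83.1% (82.6 to 83.5) of Ldha and Ldhb UMIs in control naive-like cells, 68.3% in neurogenic-like, 52.1% (51.0 to 53.2) in neuron-like, 74.3% in margin-like and 96.8% in lens-like cells. The DKO shares were 84.6%, 71.5%, 50.7%, 73.2% and 95.2%. Hk2 made up 79.8% of Hk1 and Hk2 in naive-like and 24.5% in neuron-like cells of the control, against 83.9% and 21.8% in DKO. Pfkp made up 470 of the 3486 UMIs (12.4 to 14.7%) of the 3 phosphofructokinases in naive-like and 72.5% in neuron-like control cells, with Pfkl taking 76.7% and 21.6%.

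Some shares also differed between genotypes, with separate intervals. Hk2 went from 70.5% (63.1 to 77.2) of the pair in control to 83.4% (77.8 to 88.1) in DKO lens-like cells, and Pfkp was at 9.03% (8.06 to 10.1) of its 3 genes in DKO naive-like cells. Slc2a1 made up 93.4% (92.8 to 93.9) of the 2 glucose transporters in control and 85.9% (85.3 to 86.6) in DKO naive-like cells, and 90.7% and 80.2% in margin-like cells. Slc16a3 went from 38.4% (36.3 to 40.6) of the 2 lactate transporters in control to 55.0% (53.1 to 56.9) in DKO naive-like cells, and from 60.8% to 70.5% in neurogenic-like cells. In neuron-like cells it was at 72.0% and 70.9%. These shares take the 3′ ends of paralogs as captured equally well, which was not tested.

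**Figure D5:**
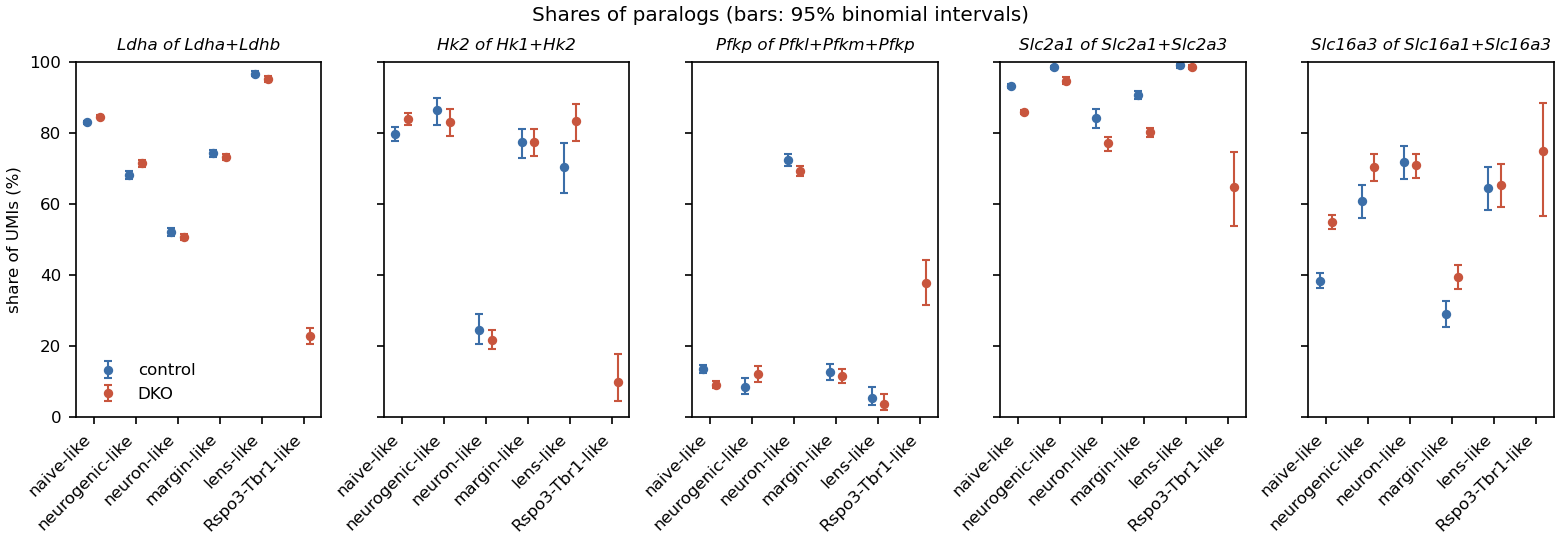
Share of UMIs (percent) of 1 gene among its paralogs, in 6 cell classes, control in blue and DKO in red, with exact 95% binomial intervals as bars. Rspo3-Tbr1-like cells were found in the DKO library alone. Hk2 is at 79.8% in naive-like and 24.5% in neuron-like control cells, and Slc16a3 at 38.4% in control and 55.0% in DKO naive-like cells.

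A cluster of 591 cells with Rspo3 and Tbr1 among its leading genes was found in the DKO library alone. Against neuron-like cells of that library, 17 of 28 genes were lower (all genes, 15.4%) and 0 higher. Ndrg1 was at 3.04 CPM against 23.6 (log2 difference -2.96), Pfkp at 33.5 against 171 (-2.36), Ldha at 123 against 380.0 (-1.63), Slc2a1 at 21.7 against 65.1 (-1.59) and Eno1 at 164 against 419.8 (-1.36). The levels in neuron-like cells differed between types for Pfkp, at 181 CPM in ganglion-like but 25.4 CPM in amacrine- or horizontal-like and 18.9 CPM in photoreceptor-like DKO cells, and for Ndrg1, at 15.7, 166 and 99.4 CPM in the same order. The other 12 were Slc16a1 (-1.74), Hk2 (-1.55), Slc16a3 (-1.44), Pdk1 (-1.13) and, between -0.95 and -0.72, Tpi1, Aldoa, Pgam1, Pgk1, Pfkl, Gpi1, Eno2 and Slc2a3. Ldhb was at 417 against 369.9 CPM (0.17), so that Ldha made up 22.7% (20.6 to 25.0) of the pair, less than in any other class given above.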

How the data were processed

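Per the labels and the study's methods, eyecup cells were dissociated with papain, captured with 10x Genomics chips and sequenced, and the authors mapped reads to mm10 with Cell Ranger 3.1.0. The deposited values are UMI counts per gene and cell, not normalized. Cells with over 200 and under 6000 genes and under 20% mitochondrial UMIs were kept, integrated with Seurat 5.3.0 (R 4.3.3, 20 dimensions) and clustered at resolution 0.5 without the 31 genes, other listed genes or genes the study names. Clusters were named from markers (at least 75% of a list above the other cells). The members and lists were chosen with earlier results of these data known. UMIs were summed per class and library, with exact Poisson intervals for levels, ratio intervals from an exact binomial split of both libraries' UMIs and shares given exact binomial intervals, in Python 3.11.15 with scipy 1.17.1. Intervals were tested on simulated data, but the outcome is not given here. Ratios against 0 UMIs use a floor of 3 UMIs. Members past 1.5-fold in a comparison of the results are named, those of red-like against naive-like cells by their range, and from other lists the 3 with the largest differences in naive-like cells, of which 1 is not reported here. Phases were called in cells thinned to 2000 UMIs. Doublets, scored with Scrublet in scanpy 1.11.5 (331 control and 362 DKO cells), were kept except in an alternative, although they made up 94.0% of the control cells of 1 ganglion-like and 86.4% of those of 1 red-like cluster. An unnamed cluster of low-RNA cells (1033 control and 1150 DKO) entered no class. Gene positions and start sites are those of GRCm38 (GENCODE vM21 and RefSeq). A second Aldoa row, with 0 and 5 UMIs, was not used.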

Additional observations from a re-analysis of the deposited data

Results flagged for a closer look

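Several members differed between genotypes in opposite directions in different classes, with intervals on both sides of 0, although the difference between classes was not tested. Slc2a1 had a log2 difference of -0.26 in neurogenic-like cells, while it was above 0 in naive-like, margin-like, lens-like and red-like cells. Of the 2 neurogenic-like clusters, it was at 276 and 202 CPM in cluster 3 (898 control and 1337 DKO cells) and at 228 and 229 CPM in cluster 9 (552 and 419 cells). Pfkp was at -0.50 in naive-like and 1.02 in neurogenic-like cells. Eno1 was at -0.14 in naive-like and 0.30 in lens-like cells. Gapdh was at -0.11 and Bnip3 at -0.40 in red-like cells, both above 0 in the other 5 classes. Red-like cells were spread differently over clusters in the 2 libraries: within cluster 8 Bnip3 was at 37.9 and 38.0 CPM and Gapdh at 463 and 449 CPM, and within cluster 11 Gapdh was at 199 and 264 CPM. Pkm was at -0.09 in neuron-like cells and above 0 in the other 5.

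In the unnamed cluster of cells with little RNA (medians of 1027 and 978 UMIs), which belonged to no class, Bnip3 was at 20.6 CPM in the control and 62.2 in the DKO library, from 28 and 89 UMIs (log2 difference 1.60, 0.97 to 2.26).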

How the results depend on the processing

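No paired analysis was possible because only 1 library was made for either genotype. Alternatives of cells with at least 2000 UMIs and of cells under 1% hemoglobin UMIs were added after the data were seen. Of 177 alternative counts of members past 1.5-fold in 11 comparisons, 127 stayed within 1.5 times the reported count and 50 did not. Of 594 alternative values for the 39 pairs of a member and a class past 1.5-fold between genotypes, 503 stayed within their interval, 83 moved and 8 changed sign, and the causes were not tested.

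With the libraries merged without integration, margin-like Adm was at -1.35, Eno2 -1.08, Vegfa -0.44 and Ankrd37 -0.35, neuron-like cells had 4 members past 1.5-fold, and margin-like against naive-like cells 15. Gated on marker UMIs, margin-like Eno2 was at -0.59 and Ankrd37 at -0.77, and 13 members passed in lens-like and 11 in red-like cells. In Six3-low DKO cells Ankrd37 was at -0.06 in neurogenic-like and Pgam1 at -0.09 in red-like cells, and 4 members passed in neuron-like cells, 2 in each direction. These sets held 63 neurogenic-like, 315 red-like and 129 neuron-like cells, and red-like cells held little Six3 (15.0 CPM in the control), so that a split on it there separates subclusters of blood cells. In neuron-like cells the count was 2 at resolution 0.3 and at resolution 1, with doublets left out, with a minimum of 20 UMIs and in G1 cells, 3 in S and G2/M cells, and 4 with each cell weighted the same. In red-like cells it was 10 at resolution 0.3, 10 at resolution 1, 6 with all genes used for clustering, 8 with doublets left out, 1 with at least 1000 genes, 5 with CPM taken without hemoglobin, mitochondrial and ribosomal protein genes, 10 with a minimum of 20 UMIs and 1 with a minimum of 500. A minimum of 500 UMIs, which leaves fewer members to compare, gave 4 in neurogenic-like, 5 in margin-like and 1 in lens-like cells, and against naive-like cells 7 in neurogenic-like, 1 in margin-like and 6 in lens-like cells. Margin-like against naive-like cells gave 7 at resolution 1, and red-like against naive-like cells gave 7, all higher, relative to the median of all genes. G1 cells alone gave 3 in naive-like, 5 in neurogenic-like and 16 in lens-like cells, and S and G2/M cells 1 in lens-like cells.

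A smaller threshold, 0.32 on the log2 scale, gave 17 in naive-like, 16 in neurogenic-like, 9 in neuron-like, 16 in margin-like, 16 in lens-like and 9 in red-like cells, and against naive-like cells 19 in neurogenic-like, 7 in margin-like and 21 in lens-like cells. A fold of 2 gave 5, 4, 0, 5, 3 and 1 in the same 6 classes, and against naive-like cells 5 in neurogenic-like, 10 in neuron-like and 2 in margin-like cells. No share of all genes at these 2 thresholds is given here, so the counts cannot be set against all genes. In naive-like cells the count was 6 with CPM taken without hemoglobin, mitochondrial and ribosomal protein genes, and 11 at resolution 0.3. The share of all genes past 1.5-fold, against which such counts are read, moved too, being 11.4% to 57.9% under the alternatives that moved the red-like and 5.99% to 19.7% under those that moved the neuron-like count, thresholds aside. For the other counts of this section neither that share nor the number of members compared is given here. Where they are not given further above, those counts cannot be set against all genes. Depth limits members of low level: 150 pairs of a member and a class had the 100 UMIs needed, and Aldoc had them in no class.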

Other observations

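Neuron types were also looked at singly. In ganglion-like cells Slc2a3 was at 11.6 CPM in the control and 19.9 in the DKO library (log2 difference 0.78, 0.48 to 1.10), and Ndrg1 at 9.29 and 15.7 CPM (0.76, 0.41 to 1.11), although Ndrg1 was lower in DKO among naive-like cells. These were 2 of 28 members, where 7.67% of all genes were higher. In photoreceptor-like cells (89 and 113 cells), the retinal type best known for its glycolysis, Ldha was at 430.0 and 722 CPM (0.75, 0.49 to 1.01) and Tpi1 at 241 and 388 CPM (0.69, 0.33 to 1.04). These were 2 of 11 members, where 3.73% of all genes were higher. In amacrine- or horizontal-like cells 0 of 13 members were higher (all genes, 3.73%) and 0 lower (4.05%). Within ganglion-like cells of the control, the cluster led by Sncg, Nefl and Gap43, genes of axon-bearing neurons, had Pfkp at 304 CPM against 131 in the cluster led by Cntn2 and Isl1 (1.22, 1.07 to 1.36) and Hk1 at 41.2 against 21.1 (0.96, 0.58 to 1.35), while Vegfa was lower, at 34.6 against 57.9 (-0.74, -1.06 to -0.43), and P4ha1 at 39.8 against 59.9 (-0.59, -0.89 to -0.29). These were 2 of 23 members higher and 2 lower, where 8.85% and 8.47% of all genes were. In DKO the same clusters had Pfkp at 253 and 142 CPM, Hk1 at 46.4 and 31.6 CPM (0.56, under 1.5-fold) and Vegfa at 44.7 and 75.8 CPM, with 4 of 27 members higher and 4 lower (all genes, 8.60% and 8.11%). These genes were picked after their values were seen.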
